A study of Mus musculus with 12 samples.

Results

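The genes described here are 10 regulators of the G1 phase of the cell cycle: the D-type cyclins Ccnd2 and Ccnd3, their kinases Cdk4 and Cdk6, the E-type cyclins Ccne1 and Ccne2, their kinase Cdk2, the kinase inhibitors Cdkn1a and Cdkn1b, and the transcription factor E2f1. They were found by symbol among the 13780 genes of the RNA-seq count table, where each symbol occurred on 1 row, and all 10 passed the filter on low counts together with 13767 genes in all. The samples were 12 libraries of CD8+ T cells from wild type C57BL/6J mice, 8 to 12 weeks old by the methods of the study, taken from spleen by positive magnetic selection. Naïve cells (n = 4, from 4 donors) were frozen at once and received no treatment. The other libraries came from cells kept 72 h in culture on beads against CD3 and CD28, with IL-2 at 10 U/ml, either in plain media (n = 4) or in media with 40 mM sodium lactate (n = 4). The activated libraries came from 5 donors. As the donor tags were read here, 3 of these gave a library of each condition. Plain media was the control, so the effect of lactate and that of the added sodium cannot be told apart here.

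G1 is the phase in which a cell decides whether to copy its DNA. Growth signals such as the T cell receptor, CD28 and IL-2 induce D-type cyclins, which activate CDK4 and CDK6. These kinases phosphorylate the retinoblastoma protein RB, which then releases E2F transcription factors, and E2F in turn induces cyclin E, whose complex with CDK2 starts DNA replication. The proteins p21 (Cdkn1a) and p27 (Cdkn1b) bind cyclin-CDK complexes and inhibit CDK2. Resting T cells hold p27 at a high level and lose it as they enter the cycle.

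Reference promoter sequences (RefSeq, GRCm38.p6) were at hand for 8 of the 10 genes. The 200 bases that end 50 bases before the RefSeq start site are shown for Cdkn1b, Ccne1 and Cdk2. Cdkn1b and Ccne1 had the largest decrease and increase with lactate. Cdk2 was the 1 gene of the 8 with an E2F site in its window. For E2f1 (chr2:154569477-154569676) and Cdk6 (chr5:3343643-3343842) the window lies inside the gene as annotated in GENCODE M21. The bases before the annotated gene were not searched for E2f1 and Cdk6. Capitals mark the E2F site, searched as TTTGGCGC, TTTCGCGC, TTTCCCGC and TTTGCCGC, and the GC box GGGCGG, on both strands; the sites do not overlap.
Cdkn1b, chr6:134920151-134920350, + strand: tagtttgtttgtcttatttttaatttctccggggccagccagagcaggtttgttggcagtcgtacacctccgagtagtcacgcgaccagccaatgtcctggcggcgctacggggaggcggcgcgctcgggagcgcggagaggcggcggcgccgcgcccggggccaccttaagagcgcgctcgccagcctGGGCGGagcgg
Ccne1, chr7:38107541-38107740, - strand: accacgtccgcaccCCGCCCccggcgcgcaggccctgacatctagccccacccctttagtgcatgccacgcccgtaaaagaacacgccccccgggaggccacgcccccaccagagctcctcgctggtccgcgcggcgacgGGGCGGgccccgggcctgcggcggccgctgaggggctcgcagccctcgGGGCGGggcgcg
Cdk2, chr10:128705102-128705301, - strand: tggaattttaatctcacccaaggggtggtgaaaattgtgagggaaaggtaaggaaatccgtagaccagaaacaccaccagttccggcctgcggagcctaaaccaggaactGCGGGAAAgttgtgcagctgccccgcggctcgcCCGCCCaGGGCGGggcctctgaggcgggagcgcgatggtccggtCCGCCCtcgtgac
All 3 stretches are rich in G and C, with 66.5% in Cdkn1b, 78.0% in Ccne1 and 61.5% in Cdk2. Cdk2 held 1 E2F site (the capitals GCGGGAAA, the reverse complement of TTTCCCGC) and 3 GC boxes, Ccne1 held 3 GC boxes, and Cdkn1b held 1. A GC box was present in 7 of the 8 genes with a sequence, against 24.6% of all 32851 promoters and 48.2% of the tested genes with a sequence. The 7 include E2f1, whose window lies inside the annotated gene. The E2F letters were present in 1.46% of all promoters and in 3.24% of the tested genes with a sequence. The forkhead site GTAAACA, to which FOXO proteins bind, was present in 1 of the 8 genes, Ccnd3, in 2.58% of all promoters and in 2.25% of the tested genes with a sequence. These are matches of letters in a short window that leaves out the 50 bases before the start site. Other forms of the E2F and forkhead sites were not searched, and no binding was measured.

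Total counts ranged from 14726904 to 21478137 per library. The 10 genes took 0.0883% to 0.131% of the counts in naïve cells, 0.144% to 0.199% in media and 0.188% to 0.230% with lactate. Levels are given as CPM, the counts of a gene relative to the TMM-scaled total of its library. Comparisons between genes use TPM, which also divides by the exon length of the gene. The library numbers in the labels fall into low numbers (3 naïve, 3 media and 2 lactate libraries) and high numbers (1 naïve, 1 media and 2 lactate libraries). No source used here says that they mark a batch, and differences within each series of numbers are given as values only. The CD8 and CD3 genes Cd3d, Cd3e, Cd8a and Cd8b1 were present in every library. Their summed level was lowest in naïve replicate 4, with 1365 CPM against 2261 to 3112 CPM in the other naïve libraries. Naïve libraries also held RNA of other cells: 5 B cell genes summed to 498 to 1206 CPM, against 5.59 to 18.4 CPM in the activated libraries, and 6 myeloid genes to 452 to 1456 CPM, against 0.39 to 3.18 CPM. Of the red cell genes, 4 of 5 were listed and summed to 84.1 to 3369 CPM in naïve cells and to at most 1.90 CPM in activated cells, where Alas2 was at 0 in all 4 media libraries and in 3 of the 4 lactate libraries. The part of these other cells in the naïve levels below was not tested, and in bulk RNA fewer cells of a type and less RNA per cell cannot be told apart.

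Activation raised nearly the whole set. In media, 8 of the 10 genes were higher than in naïve cells at an adjusted p of at most 0.01 (edgeR, quasi-likelihood test) and none was lower, where 57.5% of all tested genes changed, 28.5% higher and 29.0% lower. These 8 genes were also those whose media libraries all lay above all naïve libraries, which 30.7% of all genes did (30.5% lay below, 61.2% in all). The median log2 fold change over all 10 genes was 1.51, against -0.029 over all tested genes. With lactate, 8 genes were higher and 1, Cdkn1b, was lower than in naïve cells (65.0% of all genes changed, 33.0% higher and 32.0% lower), with a median of 2.11 over all 10. The lactate and naïve libraries did not overlap for these 9 genes, where 67.8% of all genes did not (35.0% higher, 32.8% lower). Both comparisons use the same naïve libraries.

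Between lactate and media, 3 of the 10 genes changed, near the 25.1% of all tested genes that did. Ccne1 and Cdk6 were higher (13.9% of all genes) and Cdkn1b was lower (11.1%). The median log2 fold change was 0.36, and -0.0016 over all genes. The lactate and media libraries did not overlap for 8 of the 10 genes, 6 of them higher and 2 lower with lactate, where 44.7% of all genes did not overlap (23.2% higher, 21.5% lower). Only Ccnd2 and Ccnd3 of the 10 overlapped. With the donor as a block in the model of all 12 libraries, 1 gene of the 10, Cdkn1b, and 992 of all genes passed. The same block over the 8 activated libraries alone, added after the data were seen, gave 4 genes (Ccne1, Ccne2, Cdkn1a and Cdkn1b) and 3654 of all genes. Without naïve replicate 4, 5 genes of the 10 passed (Ccne1, Cdk4, Cdk6, Cdkn1a and Cdkn1b), and the count over all genes rose alike, from 3451 to 4845.

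**Figure D1:**
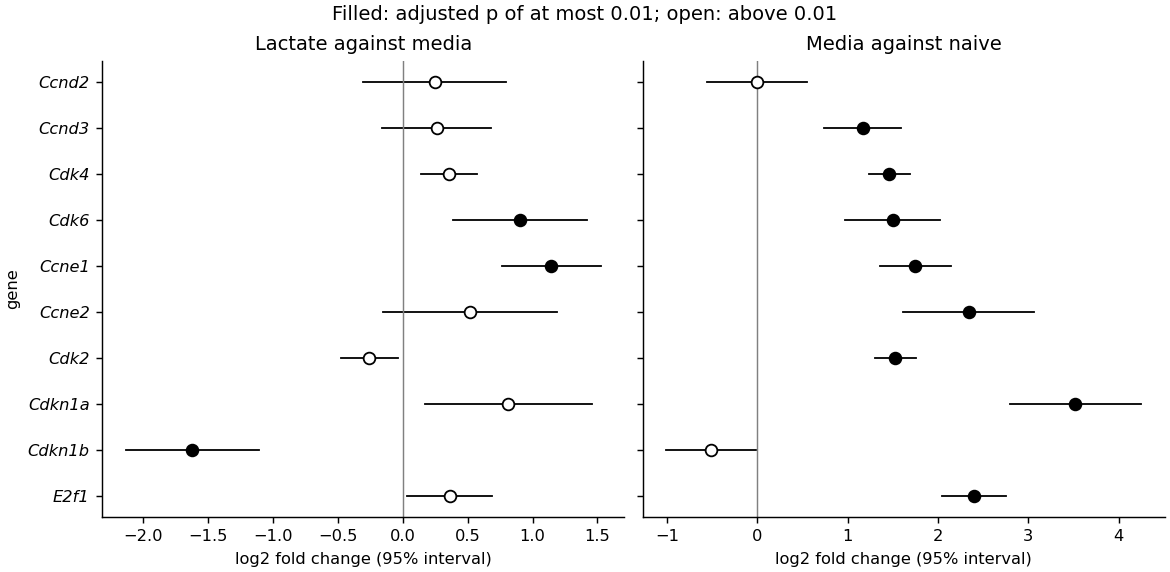
Log2 fold change (x axis) of each of the 10 genes (y axis) for lactate against media and for media against naïve cells, with 95% intervals from the edgeR model of 12 libraries; filled points have an adjusted p of at most 0.01. Cdkn1b lies at -1.62 and Ccne1 at 1.14 with lactate, and 8 of the 10 genes lie above 0 as filled points for activation in media.

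Cdkn1b encodes p27, the inhibitor that holds CDK2 inactive in resting lymphocytes. In naïve cells it was at 368, 372, 387 and 383 CPM (replicates 1 to 4), the narrowest spread of the 10 genes in that group (coefficient of variation 2.46%). In media it was at 240.3, 375, 291 and 154 CPM, and with lactate at 73.0, 119, 71.5 and 81.6 CPM. The media libraries thus spread widely and reached up into the naïve range, whereas every lactate library lay below every media and every naïve library. Cdkn1b fell with lactate by 1.62 on the log2 scale (SE 0.24, 95% interval from -2.13 to -1.11, adjusted p = 0.000282 from edgeR), 3.07-fold lower. Against naïve cells it had a log2 fold change of -0.51 in media (adjusted p = 0.0652, edgeR), which did not pass, and it fell by 2.13 with lactate (adjusted p = 4.42e-06, edgeR).

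The decrease of Cdkn1b was present in each of the 3 donors with both libraries, by -1.72, -1.29 and -0.92 on the log2 scale. It was -1.67 within the low library numbers and -1.01 within the high ones, which hold 1 media library. Its adjusted p remained at or under 0.00223 in all 26 alternative settings. No exon of Cdkn1b overlaps another gene in GENCODE M21 (ENSMUSG00000003031, GRCm38, chromosome 6, 134920401 to 134925513).

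Cdkn1a encodes p21, an inhibitor of CDK2 that is induced by p53 and also by mitogens. It was at 5.41, 6.31, 6.03 and 15.5 CPM in naïve cells, at 116, 74.6, 123 and 66.8 CPM in media, and at 161, 198, 151 and 159 CPM with lactate. All lactate libraries lay above all media libraries, and both groups lay far above the naïve one. Cdkn1a had the largest rise of the 10 genes on activation, 11.5-fold in media (log2 fold change 3.52, SE 0.33, edgeR adjusted p = 1.49e-06) and 20.1-fold with lactate (4.33, adjusted p = 2.34e-07). Naïve replicate 4 was the high naïve library. The difference between media and naïve cells was 4.09 on the log2 scale within the low library numbers and 2.10 within the high ones, which hold that library, and 4.00 in the fit without naïve replicate 4.

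Between lactate and media the log2 fold change of Cdkn1a was 0.81 (SE 0.30, 95% interval from 0.17 to 1.46, adjusted p = 0.0451 from edgeR), above the threshold of 0.01. An exact two-sided permutation test of its log2 CPM gave p = 0.0286, the smallest that the 70 ways to divide these 8 libraries can give. Any gene whose lactate and media libraries do not overlap gets this value, and 44.7% of all genes did not overlap. It therefore adds nothing to the lack of overlap. The donor differences were 0.47, 0.69 and 1.25. The gene passed in 5 of 26 settings, among them the donor block over the activated libraries alone (adjusted p = 0.00357, edgeR) and the fit without naïve replicate 4 (0.00297), and its adjusted p ran from 0.00240 to 0.177. Of its exons, 7.68% overlap a gene on the opposite strand (ENSMUSG00000023067, chromosome 17, 29090976 to 29100727).

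The 2 inhibitors thus stood in opposite order in naïve and lactate-treated cells. Per length, the ratio of Cdkn1a to Cdkn1b was 0.0189 to 0.0517 in naïve cells, 0.255 to 0.620 in media and 2.14 to 2.83 with lactate. No library of one group overlapped another group. Cdkn1b was the more abundant inhibitor mRNA in all 8 naïve and media libraries, and Cdkn1a in all 4 lactate libraries. This ratio is taken within a library and does not depend on how libraries are scaled; no test was made of it.

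**Figure D2:**
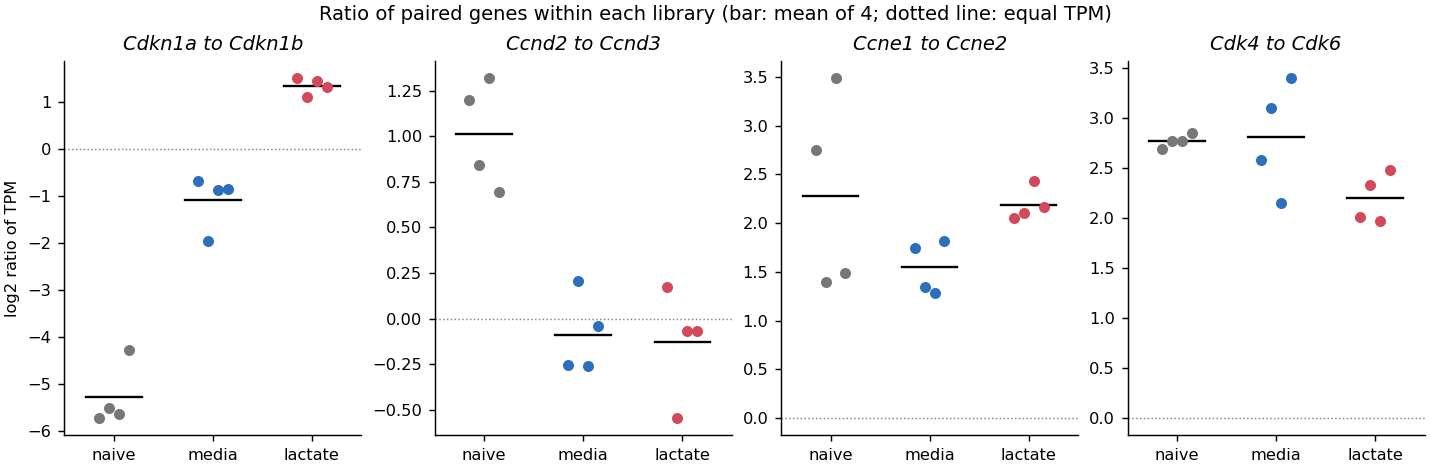
Log2 ratio of TPM (y axis) of 4 pairs of genes in each library of the 3 groups (x axis); points are libraries, bars are means of 4, and the dotted line marks equal TPM. The ratio of Cdkn1a to Cdkn1b lies below 0 in naïve and media libraries and above 0 in all 4 lactate libraries, from 1.09 to 1.5.

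Cyclin E binds CDK2 and carries the cell from G1 into S phase. Ccne1 was at 18.8, 19.8, 20.7 and 10.5 CPM in naïve cells, at 67.1, 53.3, 54.2 and 60.6 CPM in media, and at 149.5, 124, 125 and 121 CPM with lactate. The 3 groups did not overlap. Ccne1 was 3.37-fold higher in media than in naïve cells (log2 fold change 1.75, SE 0.18, edgeR adjusted p = 3.04e-06). It was 2.21-fold higher with lactate than in media (log2 fold change 1.14, SE 0.18, 95% interval from 0.76 to 1.53, adjusted p = 0.000387 from edgeR). The donor differences were 1.15, 1.20 and 1.00, and the difference was 1.23 within the low and 1.02 within the high library numbers. With the donor block over all 12 libraries the adjusted p was 0.0146 at a log2 fold change of 1.12, and over the activated libraries alone it was 0.000291 (both edgeR); over 26 settings it ran from 1.71e-08 to 0.0146. No exon of Ccne1 overlaps another gene (ENSMUSG00000002068, chromosome 7, 38097984 to 38107534).

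Ccne2, the second E-type cyclin, had the lowest mean TPM of the 10 genes in every group. It was at 3.66, 9.91, 2.42 and 4.93 CPM in naïve cells, at 26.2, 27.6, 29.2 and 22.5 CPM in media, and at 47.2, 38.0, 30.4 and 35.4 CPM with lactate. Naïve replicate 2, with the highest Ccne2, also had the highest red cell marker sum of the naïve libraries (3369 CPM) and the highest sum of the proliferation genes Mki67, Top2a and Ccnb1 (398 CPM), and the part of these cells in its level was not tested. Ccne2 rose 5.06-fold on activation in media (log2 fold change 2.34, SE 0.33, edgeR adjusted p = 4.60e-05). With lactate every library lay above every media library, yet the log2 fold change of 0.52 (SE 0.31, 95% interval from -0.15 to 1.19) had an adjusted p of 0.205 in edgeR. The donor differences were 0.85, 0.38 and 0.65, and with the donor block over the activated libraries alone the adjusted p was 0.00378 (edgeR). The range over 26 settings was 0.00378 to 0.404. Ints8 covers 17.4% of the Ccne2 exons on the opposite strand (chromosome 4, 11191351 to 11204779).

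The E-type cyclins changed in proportion to each other in different ways. The ratio of Ccne1 to Ccne2 TPM was 2.44 to 3.53 in media and 4.16 to 5.39 with lactate, without overlap. In naïve cells it ranged from 2.63 to 11.2, where counts of Ccne2 were as low as 45 in a library.

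Cdk2, the kinase partner of cyclin E, went the other way with lactate. It was at 36.8, 46.7, 38.3 and 44.7 CPM in naïve cells, at 128, 126, 119 and 108 CPM in media, and at 107, 107, 90.7 and 97.8 CPM with lactate. Activation in media raised it 2.89-fold (log2 fold change 1.53, SE 0.10, edgeR adjusted p = 8.76e-08). All lactate libraries lay below all media libraries, by a narrow gap, and the log2 fold change of -0.26 (95% interval from -0.48 to -0.04, adjusted p = 0.0611 from edgeR) did not pass. It was negative in each of 3 donors (-0.27, -0.15 and -0.14) and in every setting, with an adjusted p from 0.0211 to 0.311. Its exons overlap Pmel on the opposite strand over 0.547% (ENSMUSG00000025358, chromosome 10, 128697939 to 128705031).

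**Figure D3:**
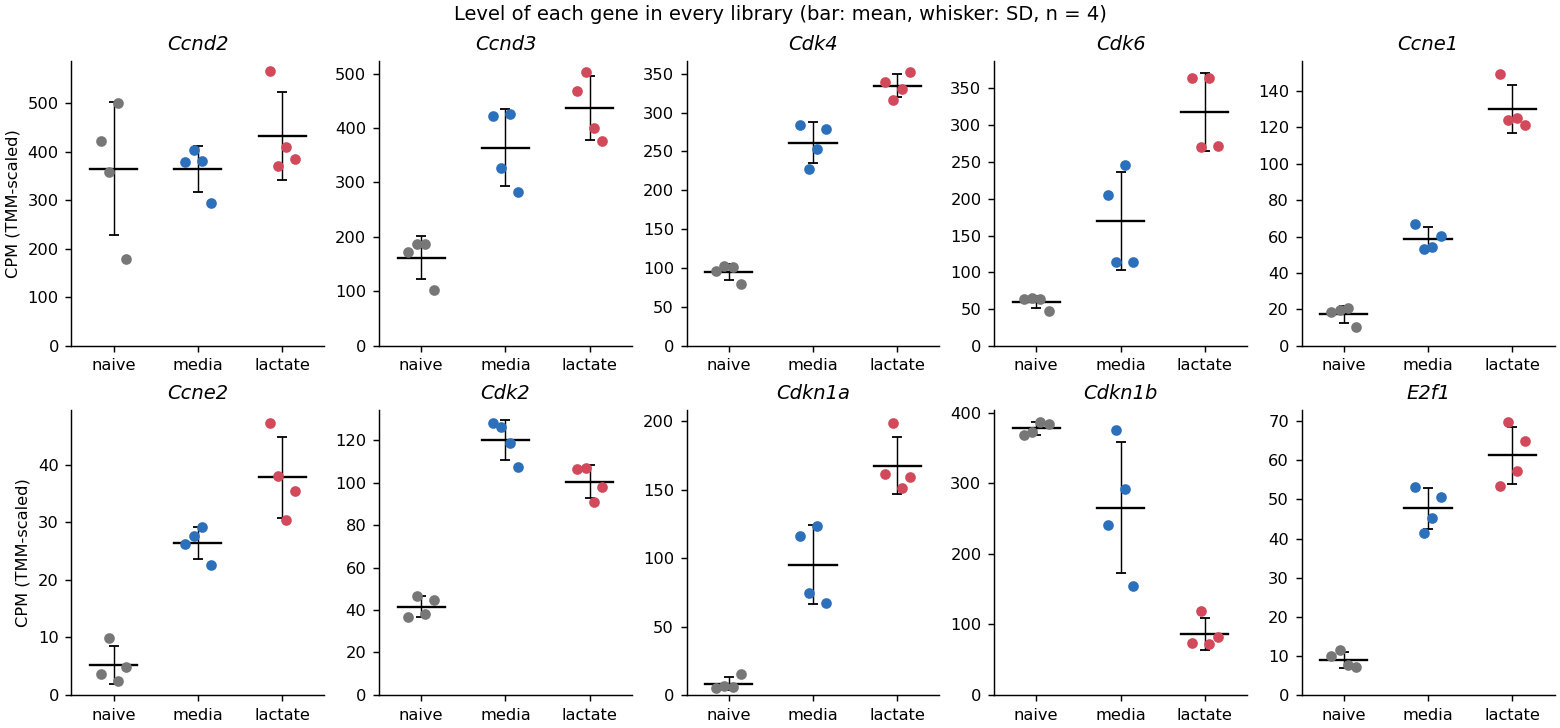
TMM-scaled CPM (y axes from 0, a scale per gene) of the 10 genes in each library of naïve, media and lactate cells (x axis); points are libraries from replicate 1 (left) to 4 (right), bars are means and whiskers SD (n = 4). Cdkn1b is highest in naïve cells and at 71.5 to 119 CPM with lactate, and Ccne1 rises in 2 separate steps.

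CDK4 and CDK6 bind D-type cyclins and phosphorylate RB. Cdk6 was at 64.0, 64.4, 64.1 and 47.7 CPM in naïve cells, at 205, 114, 246 and 114 CPM in media, and at 364, 271, 364 and 272 CPM with lactate. The media libraries fell into 2 levels, with replicates 1 and 3 above 2 and 4, and the lowest lactate library lay only slightly above the highest media library. Cdk6 rose 2.83-fold on activation in media (log2 fold change 1.5, SE 0.24, edgeR adjusted p = 0.000128). It was 1.87-fold higher with lactate than in media (log2 fold change 0.90, SE 0.24, 95% interval from 0.39 to 1.42, adjusted p = 0.00953 from edgeR).

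This last call sat at the threshold. It was lost in 16 of 26 settings, with an adjusted p from 0.00120 to 0.0445, while the direction was kept in all of them. The highest value came from the donor block over all 12 libraries (log2 fold change 0.74), and the donor differences were uneven, 0.83, 0.14 and 1.26. The smallest, 0.14, belonged to the donor of media replicate 3, the media library with the most Cdk6. The difference was 0.81 within the low and 1.46 within the high library numbers. An antisense gene, Gm17590, overlaps 2.63% of the Cdk6 exons (ENSMUSG00000040274, chromosome 5, 3341485 to 3531008).

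Cdk4 had the highest mean TPM of the 10 genes in both activated groups, and in media its range overlapped that of Cdkn1b. It was at 95.8, 102, 102 and 79.9 CPM in naïve cells, at 285, 228, 253 and 279 CPM in media, and at 339.5, 316, 331 and 353 CPM with lactate, with no overlap between the groups. Activation in media raised it 2.75-fold (log2 fold change 1.46, SE 0.10, edgeR adjusted p = 1.16e-07). Between lactate and media the log2 fold change was 0.36 (SE 0.10, 95% interval from 0.14 to 0.58) and the adjusted p 0.0137 (edgeR), just above the threshold. The donors were alike, at 0.25, 0.32 and 0.34. Cdk4 passed in 4 of 26 settings (DESeq2, the 2 groups alone, the donor as a correlation in limma, and without naïve replicate 4), with an adjusted p from 0.00324 to 0.0981. Tspan31 overlaps 19.7% of the Cdk4 exons on the opposite strand (chromosome 10, 127063534 to 127067920), and its own log2 fold change with lactate was 0.17 (edgeR adjusted p = 0.124).

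The ratio of Cdk4 to Cdk6 TPM was 6.44 to 7.21 in naïve cells, 4.43 to 10.6 in media and 3.92 to 5.58 with lactate. The media range held all naïve values and overlapped the lactate range, whereas naïve and lactate libraries did not overlap.

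**Figure D4:**
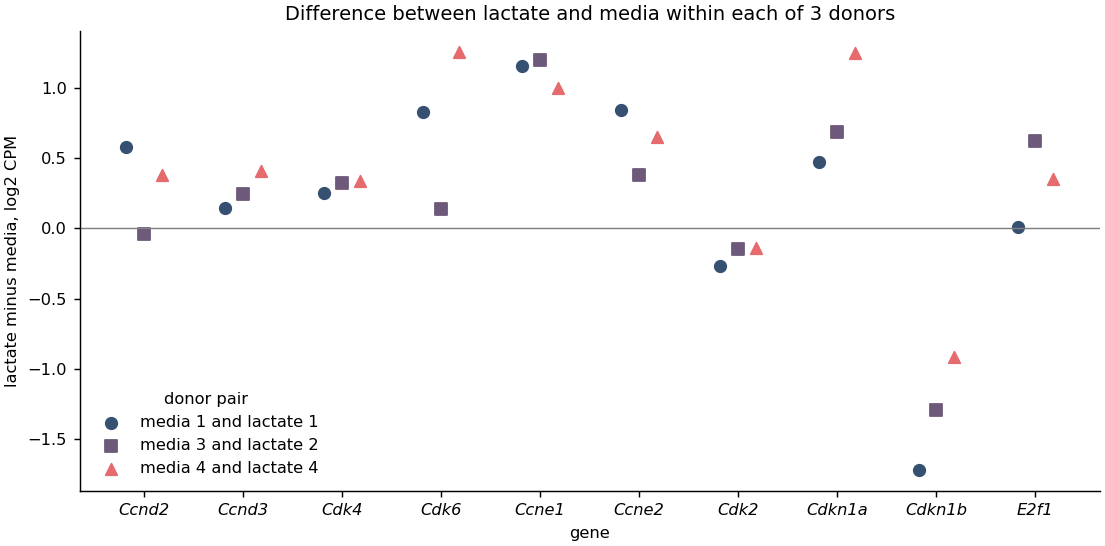
Difference in log2 CPM between the lactate and the media library of the same donor (y axis) for each gene (x axis), for 3 donors. Cdkn1b and Cdk2 lie below 0 in all 3 donors, Ccne1 lies at 1.00 to 1.20, and Cdk6 spreads from 0.14 to 1.26.

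D-type cyclins are the part of this pathway that is induced by growth signals, and lymphocytes use mainly cyclins D2 and D3. Ccnd3 was at 171, 186, 187 and 103 CPM in naïve cells, at 423, 326, 425 and 283 CPM in media, and at 468, 503, 399 and 376 CPM with lactate. It rose 2.25-fold on activation in media (log2 fold change 1.17, SE 0.20, edgeR adjusted p = 0.000173) without overlap. Lactate and media libraries overlapped, with a log2 fold change of 0.26 (95% interval from -0.16 to 0.68, adjusted p = 0.307 from edgeR).

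Ccnd2 was the only gene of the 10 that did not pass in any of the 3 comparisons. It was at 422, 358, 501 and 179 CPM in naïve cells, at 379.7, 403, 380.1 and 295 CPM in media, and at 567, 369.7, 409 and 384 CPM with lactate. All 3 groups overlapped. Naïve replicate 4, the lowest, was also the naïve library with the lowest sum of CD8 and CD3 genes. The log2 fold change was -0.0019 for media against naïve cells (95% interval from -0.55 to 0.55, adjusted p = 0.995 from edgeR) and 0.25 for lactate against media (95% interval from -0.30 to 0.80, adjusted p = 0.473). Without naïve replicate 4 the first was -0.24. The ratio of Ccnd2 to Ccnd3 TPM was 1.62 to 2.49 in naïve cells, 0.834 to 1.15 in media and 0.686 to 1.13 with lactate, so Ccnd2 led in naïve cells and the 2 cyclins stood near equal after activation with or without lactate. Exons of Ccnd2 overlap 2 antisense genes (3.95% and 3.91%), and those of Ccnd3 overlap Bysl on the opposite strand (4.11%). Ccnd2 lies on chromosome 6, 127125162 to 127152193, and Ccnd3 on chromosome 17, 47505051 to 47599691.

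E2f1 encodes an activating E2F factor that is held by RB until G1 kinases act, and that is itself among the genes E2F induces. It was at 10.0, 11.4, 7.54 and 7.17 CPM in naïve cells, at 53.2, 41.5, 45.3 and 50.7 CPM in media, and at 53.5, 69.7, 57.2 and 64.8 CPM with lactate. E2f1 rose 5.28-fold on activation in media (log2 fold change 2.40, SE 0.16, edgeR adjusted p = 8.21e-08). The lowest lactate and the highest media library nearly met, and the log2 fold change between these groups was 0.36 (95% interval from 0.04 to 0.69, adjusted p = 0.0740 from edgeR). In the donor of both libraries numbered 1 the difference was 0.0075, and in the others 0.62 and 0.35. No exon of E2f1 overlaps another gene (ENSMUSG00000027490, chromosome 2, 154559407 to 154569892).

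Per length, Cdkn1b led the 10 genes in naïve cells, with 283 ± 14.8 TPM (mean ± SD, n = 4), above Ccnd2 (132 ± 48.4 TPM), Cdk4 (99.3 ± 8.04 TPM) and Ccnd3 (62.6 ± 14.0 TPM), and no library of another gene reached its range. In media Cdk4 was first with 279 ± 26.8 TPM and Cdkn1b next with 203 ± 74.1 TPM, and the ranges of all neighbours in the order overlapped. With lactate Cdk4 stood apart at 325 ± 17.1 TPM. The next 4 genes, Ccnd3, Ccne1, Cdkn1a and Ccnd2, lay between means of 146 and 158 TPM and overlapped each other. Cdkn1b had dropped to rank 8 with 60.0 ± 16.7 TPM, level with E2f1 (61.3 ± 7.57 TPM) and Cdk2 (51.2 ± 6.13 TPM). E2f1, Cdkn1a and Ccne2 were the lowest in naïve cells, at 9.73 ± 1.90, 8.08 ± 4.97 and 5.06 ± 3.00 TPM, and neighbours among them overlapped.

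Of the other genes of the pathway, 6 lists were examined. Their counts stand beside those over all tested genes, of which 13.9% were higher and 11.1% lower with lactate than in media (25.1% in all), and 28.5% higher and 29.0% lower in media than in naïve cells. The lists are described by these counts, with no test of a list. The retinoblastoma proteins RB1, p107 (Rbl1) and p130 (Rbl2) bind E2F factors and keep them from activating genes. In the list of these and the E2F and DP factors, 12 of 12 genes were measured, of which 1 rose and 3 fell with lactate relative to media (median log2 fold change -0.35), a share near the 25.1% of all genes. The 3 that fell were Rb1 from 184 ± 24.9 to 114.0 ± 12.7 CPM (log2 fold change -0.69, adjusted p = 0.00169 from edgeR), Rbl1 (-0.59, adjusted p = 0.00347) and Rbl2 (-0.57, adjusted p = 0.000186). Tfdp1, the DP partner with which E2F binds DNA, rose from 123 ± 19.1 to 269 ± 32.6 CPM (log2 fold change 1.13, adjusted p = 0.000144 from edgeR). On activation in media 9 of the 12 were higher and 1, E2f5, was lower than in naïve cells. With the donor block over all 12 libraries, 2 of the 12 passed between lactate and media, and 7 over the activated libraries alone. In these fits 992 of 13767 and 3654 of 12460 tested genes passed.

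Of 12 genes that activate, inhibit, assemble or degrade the cyclin E kinase, 1 rose with lactate and none fell. It was Cdc25a, the phosphatase that removes the inhibitory phosphate from CDK2, from 54.8 ± 7.35 to 94.5 ± 9.55 CPM (log2 fold change 0.79, adjusted p = 0.000607 from edgeR). With the donor block over all 12 libraries none of the 12 passed, where 992 of 13767 tested genes did. Of 17 E2F target genes of the G1/S step, all 17 were higher on activation in media, against 28.5% of all genes. Between lactate and media 2 of the 17 rose and none fell, no larger a share than the 13.9% of all genes that were higher. They were Pcna, the sliding clamp of DNA polymerase (log2 fold change 0.49, adjusted p = 0.00165 from edgeR), and Mcm3, a subunit of the replicative helicase (0.37, adjusted p = 0.00992). The median log2 fold change of the 17 was 0.35, against -0.0016 over all tested genes, and Ccna2 alone was below 0 (-0.27). For most of the 17 all lactate libraries lay above all media libraries, which 23.2% of all genes did. For Ccna2 they all lay below (21.5% of all genes). None of the 17 passed with the donor block over all 12 libraries.

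Of 5 partners and inhibitors of the D-type cyclin kinases, 3 were tested, and none of them passed between lactate and media. Ccnd1 had a mean of 16.4 CPM in naïve cells, and 0.0758 and 0.0297 CPM in media and with lactate. Cdkn2c (p18), an inhibitor of CDK4 and CDK6, stood at 39.8 ± 4.69 CPM in media against 28.7 ± 3.97 CPM in lactate (log2 fold change -0.47, adjusted p = 0.185 from edgeR), and Cdkn2d (p19) 103 ± 9.65 and 85.9 ± 8.55 CPM (-0.26, adjusted p = 0.206).

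FOXO factors are active in resting T cells, and Cdkn1b is among the genes they are known to induce. Whether they took part in the change of Cdkn1b was not tested. The lists were chosen with earlier results of these data known. Of 9 FOXO factors and target genes, 7 fell with lactate against media and none rose (median log2 fold change -0.80), where 11.1% of all genes were lower. In media against naïve cells the list went both ways, with Foxo3 (0.54) and Ccng2 (1.45) higher, Foxo1 (-0.56), Foxo4 (-0.40) and Bcl6 (-1.50) lower, and 4 that did not pass. The largest decrease with lactate against media was that of Pik3ip1, an inhibitor of PI3 kinase, from 127 ± 26.0 to 18.4 ± 6.21 CPM (log2 fold change -2.78, adjusted p = 4.9e-05 from edgeR). Next came Bcl6, a transcriptional repressor (-2.00, adjusted p = 0.00339 from edgeR), and Ccng2, an atypical cyclin (-1.65, adjusted p = 0.000599 from edgeR). With the donor block 3 of the 9 passed over all 12 libraries and 5 over the activated libraries alone, all of them lower. In these fits 367 of 13767 and 1713 of 12460 tested genes were called lower. Of 15 p53 target genes, the class to which Cdkn1a belongs, 14 were tested and went both ways: 4 rose, 2 fell and 8 did not pass (median 0.020). The largest increases were those of Sesn2 (log2 fold change 1.14, adjusted p = 0.00204 from edgeR), Aen (1.11, adjusted p = 0.000330) and Bax (0.97, adjusted p = 0.000208), and the decreases those of Trp53inp1 (-1.40, adjusted p = 0.000618) and Bbc3 (-0.81, adjusted p = 0.00965). Mdm2, itself a p53 target and named here after its value was seen, stood at 0.055 on the log2 scale (adjusted p = 0.665 from edgeR). The part of p53 in the level of Cdkn1a was not tested.

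**Figure D5:**
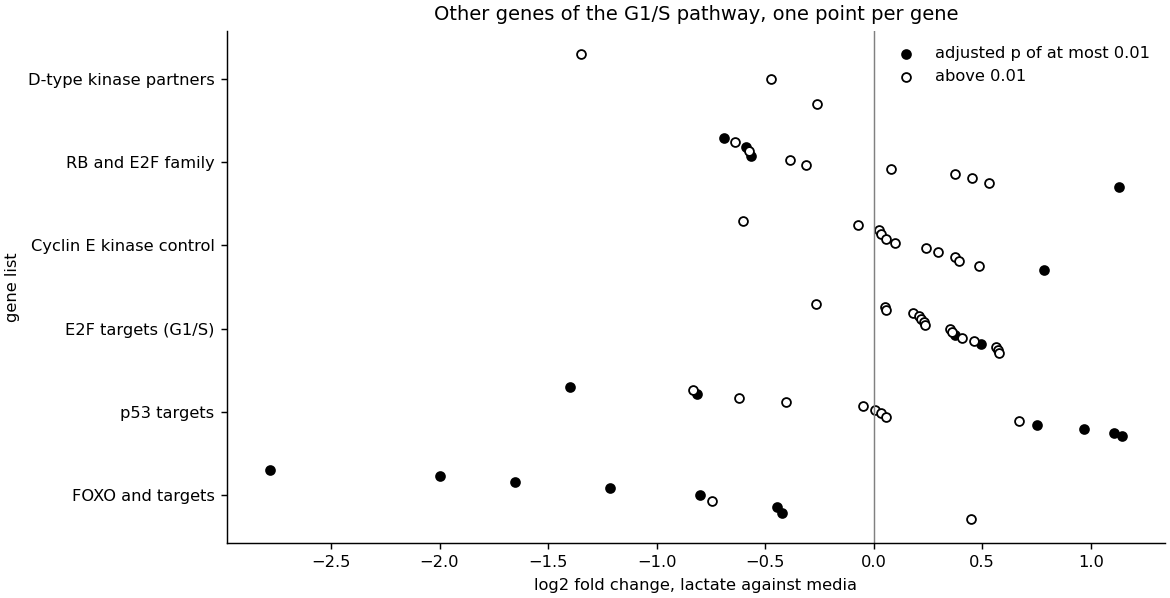
Log2 fold change between lactate and media (x axis) for the genes of 6 lists of the G1/S pathway (y axis), one point per gene, filled where the adjusted p was at most 0.01 in edgeR. Of the 9 FOXO factors and targets, 7 are filled and lie below 0, and the 14 p53 targets lie on both sides.

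Of 3 genes of dividing cells none passed between lactate and media. Mki67 (log2 fold change -0.47, adjusted p = 0.429 from edgeR), Top2a (-0.69, adjusted p = 0.0461) and Ccnb1 (0.40, adjusted p = 0.204) had changes of both signs. Their summed level was 2403 to 3286 CPM in media, 1740 to 2270 CPM with lactate and 87.4 to 398 CPM in naïve cells.

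The gene with the most similar pattern over the 12 libraries was found for each member as the smallest root mean square difference of centred log2 CPM. For Ccne1 it was Tfdp1 (0.18 log2 units), for Cdk2 Cdc7 (0.12), for Cdk4 Xpnpep1 (0.068), for Cdk6 Aldh18a1 (0.19) and for Ccne2 Haspin (0.23). For Cdkn1a it was Slc1a4 (0.27), for Cdkn1b 9430091E24Rik (0.23), for E2f1 Dnal1 (0.15), for Ccnd2 Dph6 (0.096) and for Ccnd3 Acsl5 (0.17). Cdkn1a had the least close match of the 10. These are descriptions over libraries that share groups and donors.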

How the data were processed

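The assay was RNA-seq of polyadenylated RNA, with 12 libraries. The authors deposited raw counts per gene: by the methods, reads were demultiplexed with bcl2fastq 2.20.0.422, aligned to GRCm38 with STAR 2.7.5b, cleared of PCR duplicates and, where uniquely mapped, counted in exons with featureCounts. The library kit was stranded. Whether strand was used in counting is not given in the sources used here, so overlapping genes are uncertain. The table was already limited to expressed genes.

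Genes that reached 1 CPM in 3 libraries (13767 of 13780) were kept, scaled by TMM and fitted in 1 quasi-likelihood model of 3 groups without a block (R 4.3.3, edgeR 4.0.16, limma 3.58.1, DESeq2 1.42.0). P-values were two-sided, adjusted by Benjamini-Hochberg over all tested genes, and called at 0.01 or below. The standard error (SE) was the estimate divided by the square root of F. Intervals are at 95% and use the model's degrees of freedom. Log2 CPM used a prior count of 2, TPM the table's gene lengths. Coordinates and exon overlaps came from GENCODE M21 (GRCm38). The model was run on simulated counts that gave all genes the same dispersion and held no shared donors. That run cannot show how the model handles the donors shared here. All libraries had counts of at least 14726904. Over all genes, replicate libraries differed by more than counting error, with a chi-square per degree of freedom of 5.88 to 141 per pair. For single genes counting error was not set against the spread, and Ccne2 had 45 counts in naïve replicate 3.

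The labels give activated libraries the donor tags WT1 to WT3, of which WT1 and WT2 occur among both low and high library numbers. They were read as different donors in the 2 series, which gives the 5 donors of the design text and 3 donors with both libraries. All donor differences and donor blocks rest on this reading. Deviations from group means correlated by 0.374, 0.211 and 0.553 within these pairs across genes. Of pairs read as different donors, media 2 and lactate 2 correlated by 0.297, and media 3 and lactate 3 by 0.0038. The first of these lies above 0.211, so the correlations do not settle the reading. Replicate numbers of the titles do not all follow donors. The members and lists were chosen with earlier results of these data known. All members are named. Of the lists, up to 3 called genes per direction are named, or a whole list of up to 6. Mki67, Top2a and Ccnb1 came from the marker list. E2f5, Mdm2 and Tspan31 were named after their values were seen. Promoter motifs other than E2F were added after the data were seen. Alternatives were other tests, scalings, filters, blocks, thresholds and each library left out.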

Additional observations from a re-analysis of the deposited data

Results flagged for a closer look

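In 30 groups of 4 libraries (10 genes in 3 groups), 3 held a library whose gap to its nearest neighbour, relative to the range, exceeded Dixon's critical value at 95%, where chance gives about 1 group in 20. Ccne1 was at 149.5 CPM in lactate replicate 1, against 121 to 125 CPM in the other lactate libraries. Without that library the log2 fold change of Ccne1 was 1.07. Cdk6 was at 47.7 CPM in naïve replicate 4, against 64.0 to 64.4 CPM in the other naïve libraries. Cdkn1a was at 15.5 CPM in the same naïve library, against 5.41 to 6.31 CPM. Naïve replicate 4 is the 1 naïve library with a high library number.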

How the results depend on the processing

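Of 720 values of a gene under an alternative, 685 kept direction and side of the threshold, 17 lost and 10 gained a call, and 8 turned sign. Those 8 were all Ccnd2 in media against naïve cells, near 0: 0.087 with limma voom, 0.0084 with total counts alone, 0.0084 with the 2 groups alone, 0.062 with the replicate block by title number, 0.049 with low or high library number as a term, and 0.057, 0.11 and 0.023 without naïve replicate 1, naïve replicate 3 and media replicate 4. Over all single libraries left out the value ran from -0.24 to 0.11. For lactate against media, 3 genes of the 10 became 1 (and 3451 of all genes 992) with the donor block, 5 (and 4549) with the donor as a correlation between libraries (limma), and 5 (and 5461) at an adjusted p of 0.05. Leaving out single libraries gave 2 to 5 of the 10 genes, the 5 without naïve replicate 4, and 2252 (without media replicate 2) to 4845 (without naïve replicate 4) of all genes. The cause was not tested. The replicate block by title number called 3 of the 10 genes; the title numbers pair libraries of different donors in 2 of 4 cases. In both comparisons with naïve cells the count of genes called among the 10 did not move by more than 1.5 times. The donor block over all 12 libraries leaves 5 residual degrees of freedom and compares lactate with media within 3 donors.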
